A study of Homo sapiens with 20 samples.

Results

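The 44 genes described here encode axon guidance ligands and receptors: 9 semaphorins, 3 plexins, 2 neuropilins, 11 Eph receptors, 6 ephrins, 2 netrins, 5 netrin receptors, 3 slits and 3 slit receptors. They were listed by name and family role, with earlier results of these data known. The rule that links contacts to them uses positions only, but every listed contact had reached a score of 5 in some condition. A contact belonged to a gene when both of its intervals lay on 1 chromosome and either interval overlapped the gene body widened by 1 kb. By this rule 43 of the 44 genes had a listed contact, and UNC5D, a netrin receptor gene, had none. These genes held 1510 of the 182303 contacts listed within chromosomes, and 14180 protein-coding genes had a listed contact by the same rule.

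Poised Enhancer Capture Hi-C enriches Hi-C ligation products for DpnII restriction fragments that carry poised enhancers, so each contact joins a captured fragment, the bait, with an other-end interval. The 20 libraries came from 10 conditions with 2 libraries each. HNES1 is a human pluripotent line derived from an embryo. It was profiled as naive cells and during its transition to the primed state in N2B27 medium with XAV939, on days 1, 3 and 5, on days 7 and 10, and on day 14. Naive HNES1 cells were kept with PD0325901, human LIF, Gö6983 and XAV939, on mouse feeder cells, and were passaged once without feeders before the transition. Day 14 HNES1 cells were taken to neuroectoderm (NE) with A8301 and LDN193189 over 10 days and sorted for CD56 and the absence of EpCAM. Other day 14 cells were taken to definitive endoderm (DE) with Activin A, CHIR99021, FGF2, PI-103, BMP4 and heparin, and then with Activin A, PI-103, FGF2, LDN193189 and heparin. H9, an established primed human embryonic stem cell line grown in mTeSR-E8, was the remaining condition. Each state rests on 1 cell line, and the labels do not say whether the libraries of a condition came from separate cultures. Gene expression was not analysed here, so neither the neural identity of NE nor the activity of these genes was checked against RNA.

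Axon guidance genes steer growing axons and migrating cells. Semaphorins bind plexins, with neuropilins as co-receptors of most secreted forms, and mostly repel. Ephrins are membrane-bound ligands of Eph receptor tyrosine kinases, and both partners signal into their own cells. Netrins attract through DCC and repel through UNC5 receptors, and slits repel axons that carry ROBO receptors, the classical case being the midline of the nervous system. Many such genes are silent in pluripotent cells and lie in chromatin that carries both active and Polycomb marks, the type of chromatin from which poised enhancers are defined.

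The values are CHiCAGO interaction scores, in which a higher score means a contact less likely under the distance-dependent background, and contacts that reached 5 or more were counted as called. The deposited matrix held 1 score per contact and condition, with both libraries pooled. There is therefore no spread between libraries, no comparison below carries a test, and intervals are 95% Wilson intervals that cover counting error only. Read counts were not used here, so the depth behind each score is unknown. Contacts of a locus share baits and neighbouring fragments and are not independent. Counts also rise with gene length and with the number of captured fragments, so they are compared between conditions and not between genes.

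The promoter windows below are the 250 bases before an annotated start in RefSeq (GRCh38.p14). They are those of the 4 described genes whose window overlapped, in whole or in part, an interval of a contact called in NE. They are shown 5′ to 3′ on the gene's strand because the captured fragments end at the DpnII site GATC, in capitals here, which sets where a promoter can be seen by this assay. The windows are EPHA2 at chr1:16156070-16156319 (minus strand), EPHB1 at chr3:134795010-134795259 (plus), PLXNA4 at chr7:132576471-132576720 (minus) and SEMA6D at chr15:47718239-47718488 (plus).
EPHA2: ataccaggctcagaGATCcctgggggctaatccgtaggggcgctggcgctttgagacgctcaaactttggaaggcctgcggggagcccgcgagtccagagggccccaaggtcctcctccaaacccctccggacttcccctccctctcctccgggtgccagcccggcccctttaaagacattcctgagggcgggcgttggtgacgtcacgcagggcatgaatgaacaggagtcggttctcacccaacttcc
EPHB1: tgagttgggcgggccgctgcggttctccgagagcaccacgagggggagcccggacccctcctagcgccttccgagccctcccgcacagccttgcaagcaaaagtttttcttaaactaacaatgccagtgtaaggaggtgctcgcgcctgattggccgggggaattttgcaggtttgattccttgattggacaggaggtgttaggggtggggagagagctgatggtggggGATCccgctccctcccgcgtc
PLXNA4: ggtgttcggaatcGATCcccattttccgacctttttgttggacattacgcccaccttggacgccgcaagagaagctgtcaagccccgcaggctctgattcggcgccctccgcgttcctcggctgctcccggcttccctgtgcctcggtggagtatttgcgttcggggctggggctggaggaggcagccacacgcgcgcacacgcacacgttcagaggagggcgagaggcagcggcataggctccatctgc
SEMA6D: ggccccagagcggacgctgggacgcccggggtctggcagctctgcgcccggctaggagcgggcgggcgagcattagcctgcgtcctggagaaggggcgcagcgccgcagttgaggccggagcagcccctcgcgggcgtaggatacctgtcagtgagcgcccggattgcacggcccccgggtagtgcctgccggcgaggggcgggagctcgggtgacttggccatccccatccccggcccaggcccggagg

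The EPHA2, EPHB1 and PLXNA4 windows each held 1 GATC, and each of these lay at the edge of an interval in the matrix. These windows were therefore only partly inside that interval. The captured fragment of EPHA2, chr1:16156302-16156596, covered only the end of its window farthest from the start. The SEMA6D window held none and lay whole inside a fragment. GATC, which reads the same on both strands, occurred in 35.8% of all 35116 windows and in 33.9% of the 56 windows of the 36 axon guidance genes present in the table. The member windows held a median of 20 CG dinucleotides, against 11 over all windows. The PLXNA4 and SEMA6D windows belong to starts inside the annotated gene body, and SEMA6D has 3 windows in the table. Windows of SEMA3A, SEMA6A, NRP1, EPHA10, EFNB3, NTN1, UNC5B and UNC5D were not used here.

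The contacts of the axon guidance genes made up between 0.681% and 0.895% of all calls in each condition, and their number was highest in NE and DE, the conditions with the most calls overall. The genes had 148 called contacts in naive cells, 137 on day 1, 168 on day 3, 191 on day 5, 127 on day 7, 155 on day 10 and 178 on day 14. They had 193 in H9 primed cells, 237 in DE and 260 in NE. NE and DE also had the most calls genome-wide within chromosomes, 32672 and 29563 against 20498 on day 14. As a share of all such calls, the genes held 0.81% in naive cells (0.69 to 0.951), 0.868% on day 14 (0.750 to 1.005), 0.796% in NE (0.705 to 0.898) and 0.802% in DE (0.706 to 0.910). The lowest share was on day 7 and the highest on day 5, and all 10 intervals overlapped. The number of contacts did not follow the size of the call set at each step: day 7 had the fewest, 127, with more calls overall (18651) than naive cells (18272).

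**Figure D1:**
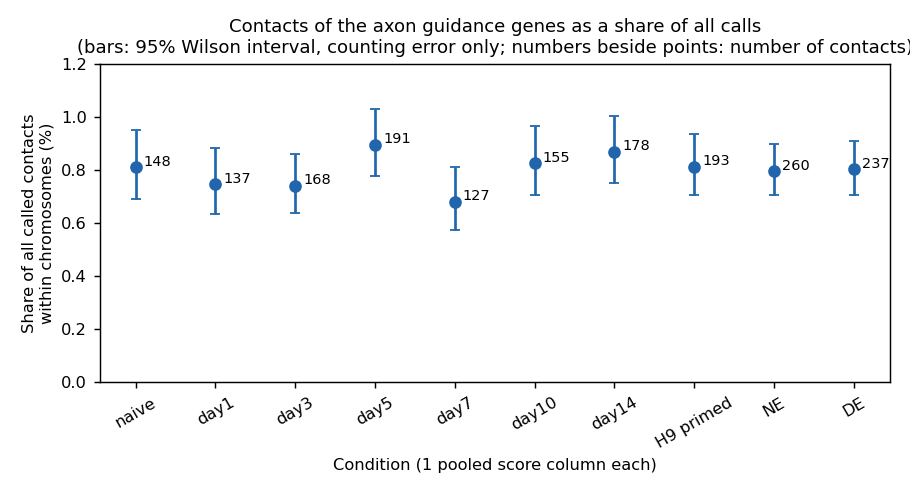
Called contacts of the 44 axon guidance genes as a percentage of all called contacts within chromosomes (vertical axis) in each condition (horizontal axis). Points are single pooled values with 95% Wilson intervals for counting error, and the number of contacts stands beside each. NE has the most contacts (260) but its share, 0.796%, lies below that of day 14, 0.868%.

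NE was compared with day 14, the cells it was made from, to see which contacts of guidance genes differ after neural induction. NE called 242 contacts of these genes that day 14 did not, lacked 160 that day 14 had, and shared 18 with it. Thus 60.2% (55.3 to 64.9) of the contacts called in exactly 1 of these conditions were NE calls, next to 62.5% (62.1 to 63.0) over all contacts within chromosomes. Of the 43 genes, 23 had more contacts in NE, 11 had fewer and 9 had as many, with a mean difference of 1.88. Over all linked protein-coding genes 41.6% had more contacts in NE and 18.9% fewer. Guidance genes are long (28 of the 43 span 100 kb or more, against 3041 of the 14180 linked genes), and among these 3041 genes 55.7% had more and 18.8% fewer, with a mean difference of 2.18. Of the 43 guidance genes 15 are shorter than that, so this second background is not matched to them in length.

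Each condition was then limited to its 18272 top-scoring contacts, the number called in naive cells. By construction, NE and day 14 then gain and lose equally many over all contacts within chromosomes. NE had 136 contacts of these genes and day 14 had 160, with 45.6% (39.7 to 51.5) gained. Among the genes, 13 had more and 22 fewer in NE. The gained share moved below an even split, but under both rules its interval included the share over all contacts. Over all linked genes under that rule 24.5% had more and 26.9% fewer. These shares are not matched to the guidance genes, which have a median of 19 listed contacts against 5.5 over all linked genes. No background of genes of 100 kb or more was counted with equal numbers of calls. The score that this rule required was 5.7 in NE, the highest of the 10 conditions, and 5.12 on day 14.

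Against DE, the endodermal sister lineage, NE called 233 contacts of these genes that DE did not and lacked 210 that DE had, and 27 were shared. NE calls were 52.6% (47.9 to 57.2) of those called in exactly 1 lineage, next to 52.8% over all contacts. With the same number of calls in each condition the share was 48.0% (41.8 to 54.2), next to an even split over all contacts by construction. Of the 43 genes, 22 had more contacts in NE than in DE, 13 fewer and 8 as many. The background was 34.1% more and 26.9% fewer over all linked genes, and 41.8% more and 33.3% fewer among genes of 100 kb or more. With equal numbers of calls 16 genes had more and 15 fewer, against 24.2% and 24.4% of all linked genes, a background not matched in length or listed contacts. 

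**Figure D2:**
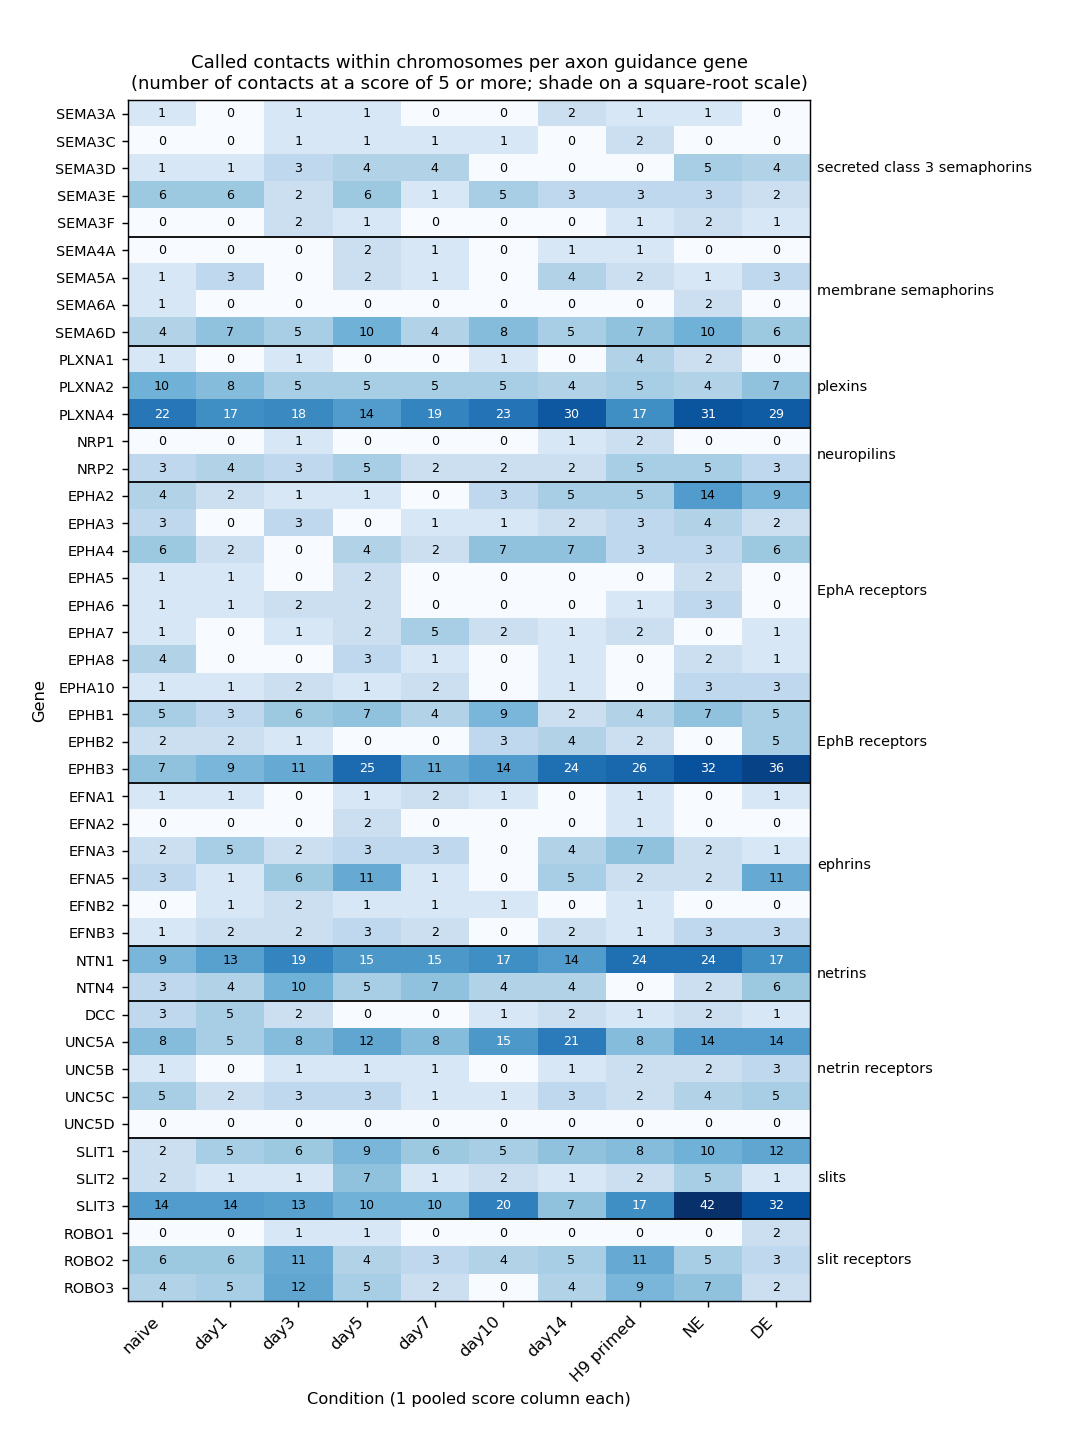
Called contacts within chromosomes (number in each cell, shade on a square-root scale) of the 44 genes, grouped by role, in the 10 conditions. SLIT3 holds the highest value, 42 in NE, most genes stay below 10 in every condition, and UNC5D is at 0 throughout.

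Below, runs of 10 values follow the order naive, day 1, day 3, day 5, day 7, day 10, day 14, H9 primed, NE and DE, and all are numbers of called contacts. The slits, secreted repellents, had the largest difference of any role, 57 contacts in NE and 45 in DE against 15 on day 14, and 26, 32 and 13 with equal numbers of calls. SLIT3 (chr5:168661740-169301139, 639 kb) accounted for most of it, with 14, 14, 13, 10, 10, 20, 7, 17, 42 and 32. NE and DE stood above all other conditions, and day 14 was the lowest. NE called 41 SLIT3 contacts that day 14 did not, lacked 6 and shared 1. Of the NE and day 14 counts together, 85.7% (73.3 to 92.9) were in NE, where all contacts within chromosomes had 32672 calls in NE and 20498 on day 14. SLIT3 had the largest difference of the 44 genes and its contacts share baits, so the interval understates the uncertainty.

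At equal numbers of calls SLIT3 had 14, 14, 12, 8, 10, 20, 5, 12, 17 and 23. NE then remained above day 14, but DE and day 10 were above NE. Both ends lay in the gene for 119 of its 164 listed contacts, and 19 captured fragments lay in the gene. The calls were spread over 17 baits in NE and 6 on day 14. The bait at the 5′ end, centred 1.15 kb before it, had 7 contacts in NE, 4 in DE and 2 on day 14. Among its contacts was the third strongest of any guidance gene in NE, which reached 315 kb into the gene at a score of 11.2, against 2.64 on day 14 and 6.45 in DE. Outside the gene, intervals before the 5′ end took part in 13 contacts in NE, 8 in DE and 4 on day 14. Without SLIT3 the genes together had 171 contacts on day 14, 218 in NE and 205 in DE.

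**Figure D3:**
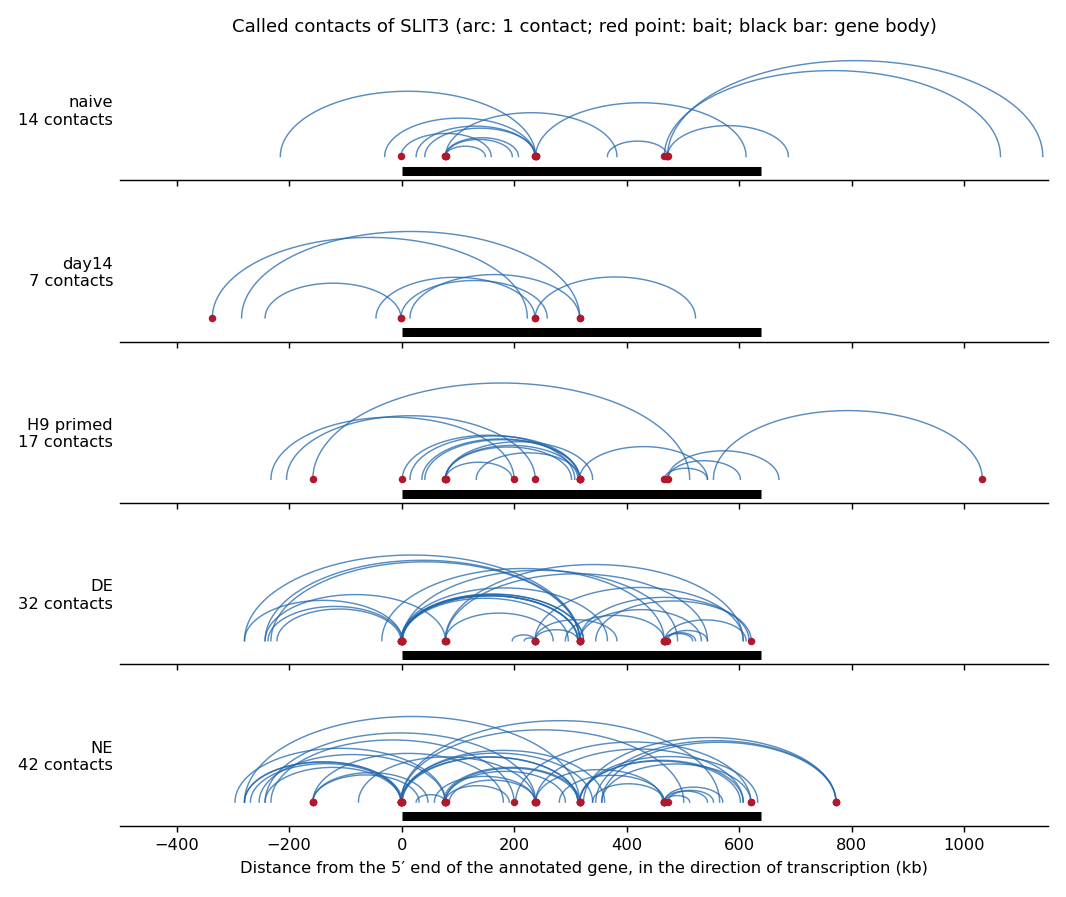
Called contacts of SLIT3 in naive, day 14, H9 primed, DE and NE cells, as arcs between bait (red) and other end along the distance in kb from the annotated 5′ end. The black bar is the gene body and arc height has no unit of its own. NE has 42 arcs from 17 baits and day 14 has 7 arcs from 6 baits, while with equal numbers of calls DE (23) lies above NE (17).

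SLIT2 had 2, 1, 1, 7, 1, 2, 1, 2, 5 and 1. Its count in NE was above day 14 and DE, but the day 5 count was higher still, and 12 of its 21 listed contacts came from 1 bait in PACRGL, 448 kb beyond the 5′ end. SLIT1 had 7 on day 14, 10 in NE and 12 in DE, an order of NE and day 14 that turned with equal numbers of calls (7 on day 14, 6 in NE).

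The ROBO genes, grouped here as slit receptors, had 9 contacts on day 14, 12 in NE and 7 in DE, but 2 in NE against 9 on day 14 with equal numbers of calls. ROBO3, a divergent receptor known from midline crossing, had 4, 5, 12, 5, 2, 0, 4, 9, 7 and 2. The day 3 and H9 counts were the highest and day 10 had none. Its NE count over day 14 turned round with equal numbers of calls (0 against 4). SIAE, a sialic acid acetylesterase gene, was the most frequent partner of ROBO3, in 17 of 44 listed contacts. ROBO2 and ROBO1 had 5 and 0 contacts in NE, the same as on day 14.

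The secreted class 3 semaphorins had 5 contacts on day 14, 11 in NE and 7 in DE (5, 6 and 3 with equal numbers of calls). SEMA3E, a ligand of plexin D1, had the most listed contacts of them and had 6, 6, 2, 6, 1, 5, 3, 3, 3 and 2. No captured fragment lay in SEMA3E, and its 30 listed contacts all came from baits within 100 kb before the 5′ end. SEMA3D had 1, 1, 3, 4, 4, 0, 0, 0, 5 and 4, with none from day 10 to day 14 and in H9 but 4 on days 5 and 7. The membrane semaphorins had 10 contacts on day 14, 13 in NE and 9 in DE. SEMA6D, a transmembrane semaphorin, had 4, 7, 5, 10, 4, 8, 5, 7, 10 and 6. Its NE count equalled that of day 5, and NE was 3 above day 14 with equal numbers of calls (6 against 3), though 2 below it when only the annotated gene ends were used.

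Plexin genes, which encode the signalling receptors for semaphorins, had 34 contacts on day 14, 37 in NE and 36 in DE. With equal numbers of calls these were 29, 16 and 15. PLXNA4 had 22, 17, 18, 14, 19, 23, 30, 17, 31 and 29, the largest number of listed contacts (187) of any guidance gene. NE and day 14 had 4 of its contacts in common, with 27 gained and 26 lost. Over all contacts within chromosomes 2299 were kept, 30373 gained and 18199 lost, so few shared calls were not particular to PLXNA4. PLXNA4 at equal numbers of calls had 25 on day 14, 14 in NE and 12 in DE. A bait beyond the 3′ end, 704 kb from the 5′ end, had 21 of its listed contacts, 7 of them called in NE and 5 on day 14. NRP2, a neuropilin co-receptor, had 3, 4, 3, 5, 2, 2, 2, 5, 5 and 3. Its range over the 10 conditions was 2 to 5, and 16 of its 28 listed contacts had an end in the neighbouring PARD3B, a cell polarity gene.

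EphA receptor genes had 17 contacts on day 14, 31 in NE and 22 in DE, and 6 of the 8 had more in NE than on day 14, where the share over all linked genes was 41.6%. The EphA genes at equal numbers of calls had 14, 21 and 10 contacts, and 4 of the 8 had more in NE, 3 fewer and 1 as many. EPHA2 (chr1:16124337-16156069), a receptor also known from epithelia, had 4, 2, 1, 1, 0, 3, 5, 5, 14 and 9. NE was the highest and DE the second highest, also with equal numbers of calls (11 and 7, against 4 on day 14). A single captured fragment, centred 0.38 kb before the 5′ end, made 26 of the 31 listed EPHA2 contacts. It is the fragment whose DpnII site stands in the promoter window printed above. That bait had 3, 2, 0, 1, 0, 1, 4, 5, 13 and 9 called contacts.

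The EPHA2 difference is therefore one of the contacts of 1 promoter fragment. Since that fragment lies outside the gene body, the count without the 1 kb widening was 3 in NE and 2 on day 14. Contacts reaching before the 5′ end numbered 0 on day 14, 7 in NE and 5 in DE, and those reaching past it 4, 5 and 3. EPHA4, the receptor that binds ephrins of both classes, went the other way with 6, 2, 0, 4, 2, 7, 7, 3, 3 and 6. Day 10 and day 14 were its highest, and none of its 40 listed contacts was called in more than 1 condition. Its lower count in NE than in DE turned with equal numbers of calls (3 and 2). The other EphA genes had 4 contacts or fewer in NE.

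**Figure D4:**
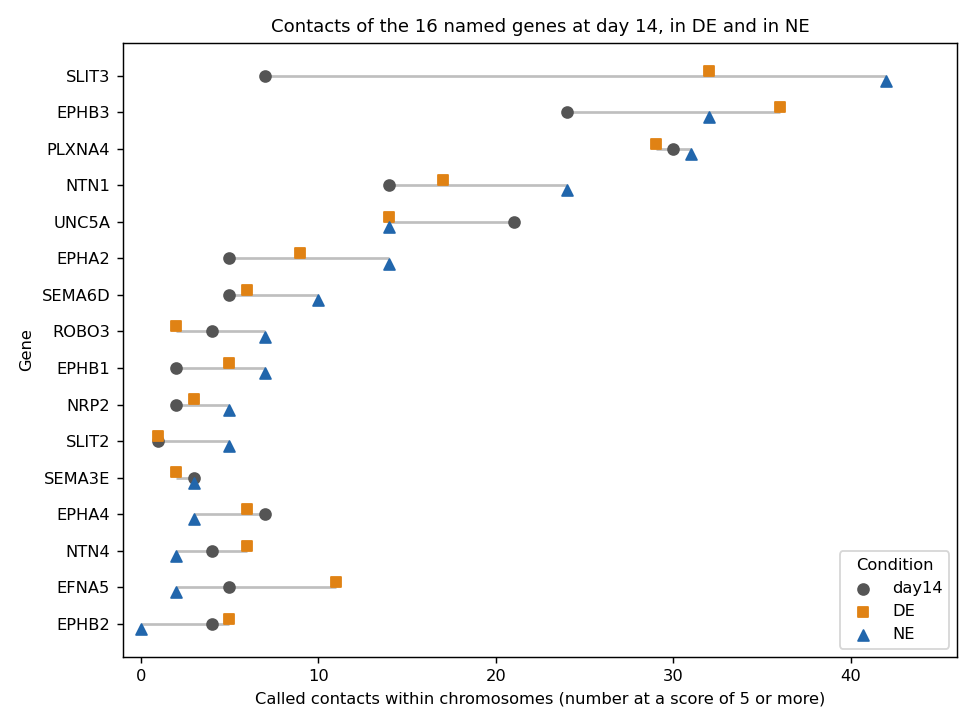
Number of called contacts of the 16 genes selected for description, on day 14 (circles), in DE (squares) and in NE (triangles), sorted by the NE count. SLIT3 shows the widest gap (7, 32 and 42), UNC5A has its highest count on day 14 (21), and EFNA5 has 5, 11 and 2; the equal-call counts, under which NE falls below day 14 for EPHB3, PLXNA4, NTN1, ROBO3 and SEMA3E, are not plotted.

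EphB receptor genes had 30 contacts on day 14, 39 in NE and 46 in DE (27, 24 and 35 with equal numbers of calls). EPHB3 (chr3:184561785-184582408), a receptor for B-class ephrins, had 7, 9, 11, 25, 11, 14, 24, 26, 32 and 36. Naive and day 1 cells were the lowest and DE the highest. With equal numbers of calls the counts were 7, 9, 9, 24, 11, 14, 22, 22, 21 and 29, so that NE lay beside day 14 and below DE. Of its 125 listed contacts 35 were called in 2 or more conditions, the highest such number of any guidance gene. As a part of the listed contacts this was less than for EPHA2 (12 of 31), EPHA7 (4 of 11), NTN4 (10 of 32) and, narrowly, UNC5A (21 of 74).

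The EPHB3 contacts converged on 1 stretch beyond the gene. A window 150 to 250 kb beyond the 5′ end, chosen after its values were seen, held the far end of 81 of the 125 listed contacts (64.8%). These had 2, 8, 7, 17, 8, 9, 16, 20, 28 and 32 calls. The count was 2 in naive cells, 16 on day 14 and above 25 in both lineages. The window was not counted with equal numbers of calls, under which the whole gene had 22 on day 14, 21 in NE and 29 in DE. Before the 5′ end the opposite held, with 2, 0, 3, 3, 1, 1, 4, 3, 0 and 0, so that all NE and DE calls of EPHB3 lay on its far side. No annotated protein-coding gene body lay at the strongest of these far intervals.

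The most recurrent contacts of the whole group were in this stretch. The bait at chr3:184567883-184568876, inside EPHB3, met chr3:184778874-184784050 with scores of 7.15, 5.38, 3.28, 6.21, 6.88, 4.45, 9.28, 11.5, 10.5 and 10.0. It was called in 8 conditions, all but days 3 and 10. The same bait met chr3:184758039-184763351 with 2.48, 6.57, 5.58, 7.25, 5.18, 0.0, 10.3, 6.33, 5.27 and 14.2, also called in 8. With chr3:184763352-184768419 it made the strongest contact of any guidance gene in DE, at 15.9 against 6.54 in NE and 3.49 on day 14.

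**Figure D5:**
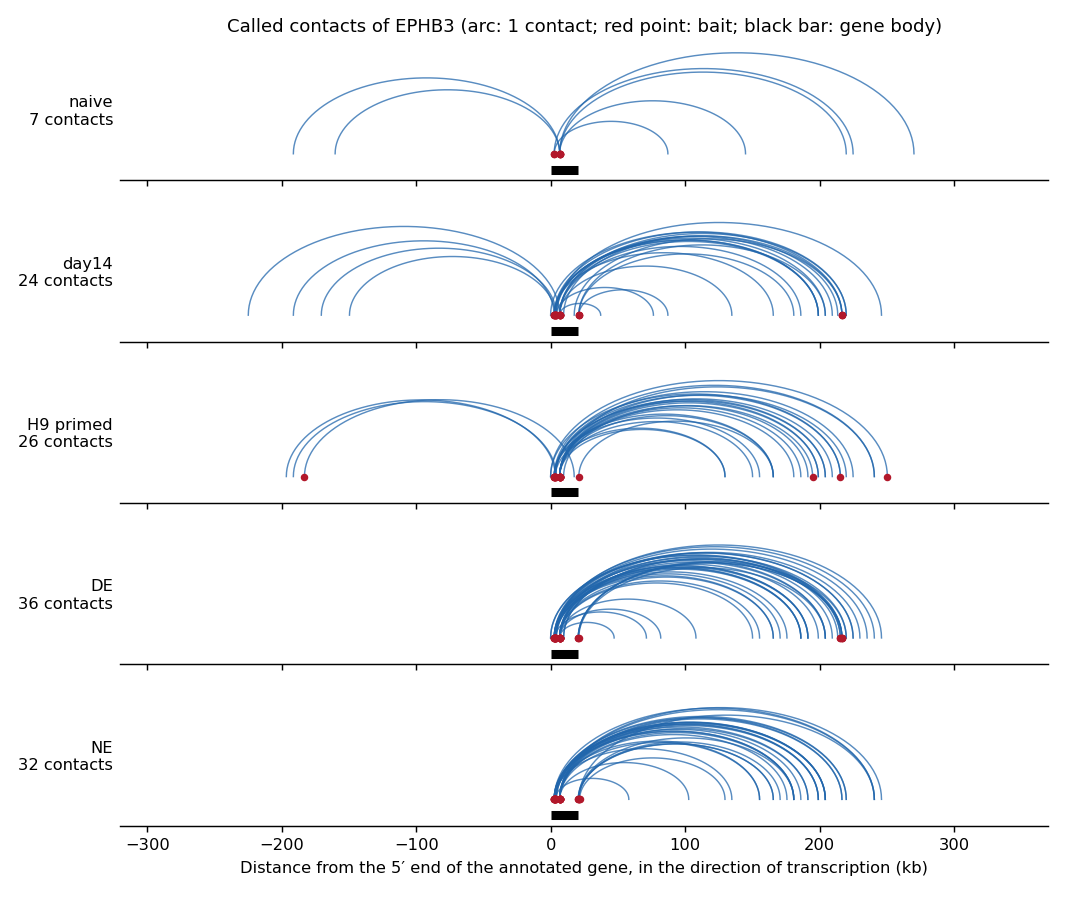
Called contacts of EPHB3 in naive, day 14, H9 primed, DE and NE cells, as arcs between bait (red) and other end along the distance in kb from the annotated 5′ end. The black bar is the gene body and arc height has no unit of its own. Arcs to the window 150 to 250 kb beyond the 5′ end number 2 in naive cells, 16 on day 14, 20 in H9 primed cells, 32 in DE and 28 in NE, and none leads to the left in DE or NE. The window was not counted with equal numbers of calls.

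The other EphB genes had smaller counts. EPHB1 had 5, 3, 6, 7, 4, 9, 2, 4, 7 and 5, with day 14 the lowest and day 10 the highest. Its promoter window overlapped an interval of 1 contact, called in NE alone, and its order in NE and DE turned with equal numbers of calls (3 and 4). EPHB2 had 2, 2, 1, 0, 0, 3, 4, 2, 0 and 5, and NE was among the 3 conditions with none. EPHB2 and EPHA8, neighbours on chromosome 1, were the only guidance genes joined to each other, by 2 contacts, of which 1 was called in naive cells and 1 on day 14.

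The ephrins, the ligands of Eph receptors, had fewer contacts in NE (7) than on day 14 (11) and in DE (16), and 5, 11 and 9 with equal numbers of calls. EFNA5, an A-class ephrin known from the mapping of retinal axons, had 3, 1, 6, 11, 1, 0, 5, 2, 2 and 11. Day 5 and DE stood highest, day 10 had none, and NE was below day 14 while DE was above it. EFNA5 at equal numbers of calls had 5 on day 14, 2 in NE and 6 in DE, so that DE lay above day 14 by 1 contact. A bait 2.47 kb inside the 5′ end of EFNA5 made 5 of the 11 DE contacts, 1 of those in NE and none of those on day 14. No EFNA5 contact was called in more than 1 condition. The other ephrin genes had 3 contacts or fewer in NE.

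The netrins had 18 contacts on day 14, 26 in NE and 23 in DE, but 18, 12 and 11 with equal numbers of calls. NTN1, a long-range guidance cue of the neural floor plate, had 9, 13, 19, 15, 15, 17, 14, 24, 24 and 17. Naive cells were the lowest, and H9 and NE were equally high. With equal numbers of calls NE (12) was below day 14 (14). STX8, the neighbouring gene for a SNARE protein, was at the far end of 61 of the 152 listed NTN1 contacts, with 3 calls on day 14, 12 in H9, 11 in NE and 9 in DE. The strongest contact of any guidance gene in NE joined NTN1 at chr17:9023682-9024670 with STX8 at chr17:9528530-9533984, 507 kb apart. It scored 13.1 in NE and no more than 2.42 in any other condition. NTN4, a netrin related to laminins, had 3, 4, 10, 5, 7, 4, 4, 0, 2 and 6, with day 3 highest and H9 at 0. A bait 0.547 kb before its 5′ end made 25 of its 32 listed contacts.

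Netrin receptor genes had 27 contacts on day 14, 22 in NE and 23 in DE. UNC5A (chr5:176810559-176880898), a repulsive netrin receptor, had 8, 5, 8, 12, 8, 15, 21, 8, 14 and 14. Day 14 was the highest, and H9, also primed, had as few as naive cells. UNC5A at equal numbers of calls had 20 on day 14, 7 in NE and 12 in DE, so its lower count in NE than on day 14 was larger under that rule. The bait at chr5:176813636-176815955, 4.24 kb inside the 5′ end, had 40 of the 74 listed contacts.

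UNC5A also had a stretch to which contacts returned, 125 to 175 kb before its 5′ end, chosen after its values were seen. It had 2, 1, 3, 4, 4, 10, 8, 1, 4 and 6 calls, highest on days 10 and 14. The leading contact joined that bait with chr5:176649491-176655673 in TSPAN17, a tetraspanin gene, and was the strongest guidance gene contact on day 14. Its scores were 4.11, 2.71, 7.06, 7.81, 11.1, 7.46, 14.6, 4.12, 3.37 and 12.1. It was called from day 3 to day 14 and in DE, and not in naive, day 1, H9 or NE cells. UNC5C had a contact across its gene, 385 kb long, that was called in 6 conditions, at 5.19 on day 14, 6.08 in NE and 9.26 in DE. DCC, the receptor for netrin attraction, had 2 contacts on day 14, 2 in NE and 1 in DE.

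Besides the 16 genes selected for description, 28 guidance genes had between 0 and 60 listed contacts, a median of 10.5 and at most 12 calls in a condition. SEMA3D, given above with its 10 values, is among the 28 genes. Of the 28 genes, 13 had more contacts in NE than on day 14, 6 fewer and 9 as many, with differences from -3 to 5. The shares were 41.6% more and 18.9% fewer over all linked genes, and 55.7% and 18.8% among those of 100 kb or more. Against DE the numbers were 12 more, 8 fewer and 8 as many, with differences from -3 to 3, next to 34.1% more and 26.9% fewer over all linked genes.

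From naive to day 14 the group had 172 contacts gained, 142 lost and 6 kept. The gained share was 54.8% (49.3 to 60.2), next to 53.1% over all contacts. More contacts on day 14 than in naive cells were found for 17 genes and fewer for 17, where 29.0% of all linked genes had more and 25.5% fewer. EPHB3 (7 to 24) and UNC5A (8 to 21) had the widest gains of the described genes, and SLIT3 (14 to 7) the widest loss, with the same directions at equal numbers of calls (7 to 22, 8 to 20 and 14 to 5). H9 primed cells shared 11 contacts of the guidance genes with day 14 cells. They had 182 that day 14 lacked and lacked 167 that day 14 had. Over all contacts within chromosomes 1762 were shared, with 22002 found in H9 alone and 18736 on day 14 alone.

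The contacts resembled other contacts of the assay in form. Their median distance was 230 kb (quartiles 149 and 370 kb), against 228 kb over all contacts within chromosomes. Calls in 2 or more conditions made up 12.6% of them, against 14.2% over all. In 494 of the 1510 contacts a guidance gene lay at both ends, in 492 of these the same gene. The gene lay at the bait alone in 706 and at the other end alone in 310. Captured fragments in contact with these genes numbered 323, and 17 contacts (1.13%) joined 2 captured fragments.

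Other genes of the pathway, 58 further semaphorins, plexins, Eph and netrin family genes, receptors, adhesion molecules and downstream effectors, were counted in the same way. A listed contact was found for 55 of them, 22 of which span 100 kb or more, and not for L1CAM, SEMA4C and SEMA6B. More contacts in NE than on day 14 were found for 35, fewer for 7, with a mean difference of 2.47. Against DE 26 had more and 16 fewer. The background over all linked genes was 41.6% more and 18.9% fewer than on day 14, and 34.1% and 26.9% against DE. Among genes of 100 kb or more it was 55.7% and 18.8%, and 41.8% and 33.3%. With equal numbers of calls 23 of these 55 genes had more and 14 fewer than on day 14, and 24 more and 14 fewer than in DE. Under that rule 24.5% of all linked genes had more and 26.9% fewer than on day 14, and 24.2% and 24.4% against DE. Long genes were not counted apart under it, so this background is not matched to these genes.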

How the data were processed

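Hi-C libraries digested with DpnII were enriched for poised enhancer fragments by SureSelect capture and sequenced as 150 bp paired-end reads, per the labels' protocols. The authors deposited 1 CHiCAGO score per contact and condition, and the labels tie both libraries of a condition to 1 column. Coordinates are on GRCh38, per the submitters' processing notes; the aligner, caller version, binning and filters are not given in the sources used here. Each listed contact reached a score of 5.00 in some condition. Contacts with both intervals on 1 chromosome were linked to gene bodies (GRCh38.p14, 19945 protein-coding genes after 105 readthrough genes were left out) widened by 1 kb, with pandas 2.3.3 and numpy 2.4.6. The linking was checked on simulated data. Shares carry Wilson 95% intervals (scipy 1.17.1), and no test was run. The deposited distance column gave contact lengths. The genes selected for description were the 6 largest gains and 4 largest losses for NE against day 14 and against DE, with ties taken by the larger number of listed contacts, and the gene with the most listed contacts of each role. The values of SEMA3D were given outside this selection. The members, lists and regions were chosen with earlier results of these data known. Alternatives changed the score threshold, the number of calls per condition, the link to genes and the contacts counted.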

Additional observations from a re-analysis of the deposited data

Results flagged for a closer look

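EFNA5 had 3 fewer contacts in NE than on day 14 (a difference of -3) and 6 more in DE than on day 14, opposite signs against a shared reference. With equal numbers of calls the counts were 5 on day 14, 2 in NE and 6 in DE, so DE was 1 above day 14. The difference between lineages was not tested, since each condition has 1 pooled value.

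Contacts between chromosomes were left out of the comparisons above. Those with an axon guidance gene at either end numbered 290 on day 14 and 393 in H9 primed cells, but 1586 in NE and 2078 in DE. As a share of all calls between chromosomes they were 0.923% on day 14 (0.823 to 1.034), 1.02% in NE (0.973 to 1.07) and 1.11% in DE (1.06 to 1.16). NTN1 had 27 on day 14, 155 in NE and 184 in DE, and SLIT3 had 34, 143 and 198.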

How the results depend on the processing

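With the same number of calls in each condition, the gained share was 45.56% for NE against day 14 and 47.97% for NE against DE. Both lay on the other side of an even split, which is the share over all contacts by construction under that rule. In that setting 13 genes had more contacts in NE than on day 14 and 22 had fewer. At a score of 10 or more these shares were 71.43% (10 contacts gained, 4 lost) and 64.29% (9 and 5), counts too small to set against the main shares, and 5 and 4 genes had more contacts in NE than on day 14 and in DE. With the annotated gene ends in place of the body, 11 genes had more in NE in each comparison. Single genes also turned: with equal numbers of calls the NE minus day 14 difference was -1 for EPHB3, -2 for NTN1, -4 for ROBO3 and -11 for PLXNA4, and NE minus DE was 1 for EPHA4, -1 for ROBO3, -1 for EPHB1 and -6 for SLIT3. With gene ends, NE minus day 14 was -1 for NRP2 and -2 for SEMA6D, and NE minus DE was -1 for NTN1. With the gene at the bait NE minus DE was 1 for EPHB3 and NE minus day 14 was -4 for PLXNA4, with EPHB3 at the other end NE minus day 14 was -3, and by baits with a call ROBO3 had -1 for NE minus day 14. PLXNA4 also had -1 for NE minus day 14 at a score of 10, and -1 for NE minus DE without contacts inside 1 gene. At a score of 3 NE minus DE was -7 for SEMA3E and -1 for EPHB1. The cause was not tested. Without SLIT3, left out after its values were seen, the gained shares were 56.6% and 51.7%. With H9 in place of day 14, also added after seeing the data, the share was 58.0%. Unknown depth limits every comparison of call numbers. No paired analysis was possible because both libraries of a condition share 1 score column.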
